A study of Mus musculus with 16 samples.

Results

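The Cyp4a gene cluster is a run of 6 protein-coding genes on mouse chromosome 4, Cyp4a12a, Cyp4a12b, Cyp4a14, Cyp4a10, Cyp4a31 and Cyp4a32, and its open chromatin in liver was read from the DNase hypersensitive sites (DHS) deposited for 2 strains and both sexes. A DHS belonged to the cluster when a peak of any of the 4 lists overlapped one of these genes or the 20 kb on either side of it, and peaks that shared 1 bp or more across lists were taken as 1 region. This rule found 5 regions made of 8 peaks, out of 51482 regions made of 129472 peaks in the whole genome. The livers came from male and female mice of C57BL/6J (B6), the strain of the reference genome, and CAST/EiJ (CAST), bred from wild-caught mice of a different subspecies. All mice were 8 weeks old per the labels, and 32 units of DNase I were used on the nuclei. Of 16 libraries there were 4 each for Male B6, Female B6, Male CAST and Female CAST, and the 4 libraries of a group were merged into 1 list before peaks were called, so each value below is a single measurement of whole-liver nuclei with no replicate error and no test between groups.

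CYP4A enzymes are cytochromes P450 of the endoplasmic reticulum that hydroxylate the terminal (omega) carbon of fatty acids, a side route of fatty acid breakdown alongside mitochondrial and peroxisomal beta oxidation. In mouse liver, Cyp4a10 and Cyp4a14 are classical targets of the fatty acid receptor PPAR alpha, which binds as a heterodimer with RXR to direct repeats of the half-site AGGNCA spaced by 1 base. Expression of several cluster genes is known to differ by sex in rodent liver and kidney, with Cyp4a12a, an arachidonic acid hydroxylase, the best known male-biased member and Cyp4a14 a female-biased one. The pattern of pituitary growth hormone release, which differs by sex and acts through the factor STAT5 and sites of the form TTCNNNGAA, sets much of liver sex bias.

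The 6 genes had 0 to 2 regions each, beside a median of 2 over 22367 protein-coding genes, of which 52.8% had 2 or fewer. Of the members, only Cyp4a14 had a DHS in all 4 lists, and that site lay upstream of the gene rather than over its start. Cyp4a12b and Cyp4a10 had no region within 20 kb in any list. Cyp4a12a had 1 region far upstream, Cyp4a31 shared 1 region with Cyp4a32, and Cyp4a32 had 2, all of them found in a single male list. The sequences around the 5 summits are shown because they are the open sites on which every comparison rests, each on the + strand of mm9 with 75 bases on either side of the summit of the peak with the highest fold enrichment. The position given with each sequence is that of the printed bases.
Cyp4a12a distal DHS, chr4:114958130-114958280: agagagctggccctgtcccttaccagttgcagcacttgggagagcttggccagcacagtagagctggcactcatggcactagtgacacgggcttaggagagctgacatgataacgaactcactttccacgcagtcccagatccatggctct
Cyp4a14 promoter DHS, chr4:115169051-115169201: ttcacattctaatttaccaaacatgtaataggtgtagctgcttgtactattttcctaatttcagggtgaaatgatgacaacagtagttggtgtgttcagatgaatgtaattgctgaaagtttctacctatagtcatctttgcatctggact
Cyp4a14 upstream DHS, chr4:115170133-115170283: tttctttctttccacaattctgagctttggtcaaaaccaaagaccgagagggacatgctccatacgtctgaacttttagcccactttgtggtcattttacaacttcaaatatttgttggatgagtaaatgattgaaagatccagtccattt
Cyp4a32 upstream DHS, chr4:115269730-115269880: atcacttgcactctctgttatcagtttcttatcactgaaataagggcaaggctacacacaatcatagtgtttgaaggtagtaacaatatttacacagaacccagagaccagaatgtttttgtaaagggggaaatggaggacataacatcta
Cyp4a32 intronic DHS, chr4:115274493-115274643: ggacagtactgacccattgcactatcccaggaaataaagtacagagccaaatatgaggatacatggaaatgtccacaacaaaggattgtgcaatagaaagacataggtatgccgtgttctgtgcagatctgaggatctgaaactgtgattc

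All 5 stretches are in lower case because none of them held either motif searched, which were 2 AGGNCA half-sites in the same direction with 1 base between them, as bound by PPAR alpha, and TTCNNNGAA, as bound by STAT5, both on either strand. Around the summits of all 51482 regions, 1.29% of windows of 301 bp held the first motif and 10.2% held the second. In the corresponding windows of the 5 cluster regions the count was 0 for both. Over the whole length of the regions, TTCNNNGAA stood once in the Cyp4a14 promoter DHS, once in the Cyp4a14 upstream DHS and 2 times in the Cyp4a32 intronic DHS, beside 19.9% of all regions with at least 1 copy, while the AGGNCA repeat stood in none of the 5, beside 2.23% of all regions. These letters describe the windows only, since a match is not a bound site and bound sites often depart from the consensus.

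The Cyp4a14 promoter is shown because a DHS overlapped it. The 250 bases before the start site lie at chr4:115168748-115168997 and are printed on the gene's own (minus) strand, with the TTCNNNGAA match in capitals. The copy in the upstream DHS stood at 211 bp from its summit and is printed at chr4:115170394-115170444 on the + strand, with the match in capitals. This copy began at position 115170415, past the end of the Female B6 peak at 115170374. It therefore lay outside the stretch that all 4 lists shared.
Cyp4a14, 250 bases before the start site: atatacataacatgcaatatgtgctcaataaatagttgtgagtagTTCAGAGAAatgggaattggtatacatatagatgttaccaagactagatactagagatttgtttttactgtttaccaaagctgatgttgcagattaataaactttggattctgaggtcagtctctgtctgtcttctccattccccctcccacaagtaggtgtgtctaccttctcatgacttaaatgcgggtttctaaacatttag
Cyp4a14 upstream DHS, around the match: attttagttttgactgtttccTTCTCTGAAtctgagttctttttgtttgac

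Between 250 bases before and 50 bases after the start site, TTCNNNGAA was found once each in Cyp4a12a, Cyp4a12b and Cyp4a14 and was not found in Cyp4a10, Cyp4a31 or Cyp4a32. Of 22367 protein-coding promoters of this length, 7.94% held it. The AGGNCA repeat was found in 0 of the 6 member promoters and in 0.402% of all of them.

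The Cyp4a14 upstream DHS was the only site of the cluster found in every list. It spanned chr4:115169957-115170618 (mm9), an intergenic stretch that began 1210 bp upstream of the Cyp4a14 start site and lay 251 bp outside the 20 kb window of the neighbouring gene Cyp4a10. Its fold enrichment, the ratio of reads piled up at the summit to the local background as given by the peak caller, was 4.77 in Male B6 and 4.66 in Male CAST, against 3.82 in Female B6 and 3.91 in Female CAST. The 2 male values were therefore close to each other, as were the 2 female values, with the males higher in both strains. The typical shared region was also higher in males, at a median log2 female over male ratio of -0.40 in B6 and -0.25 in CAST. In the males the summits held 77 reads (B6) and 70 reads (CAST) on backgrounds of 15.4 and 14.3 reads, and in the females 56 reads (B6) and 34 reads (CAST) on backgrounds of 13.9 and 7.94. The fewer reads in Female CAST went with the lower background of that list, so that the enrichment was of similar size.

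Peaks of the upstream DHS were 647, 369, 513 and 565 bp wide in Male B6, Female B6, Male CAST and Female CAST, and 321 bp were common to all 4. Their summits lay within 38 bp of each other, at positions 115170208, 115170176, 115170212 and 115170214 in the same order. The site thus had the same centre in both sexes and strains at the resolution of the peak calls. Within its list it stood at the 68.6th (B6) and 63.0th (CAST) percentile of fold enrichment in males and the 62.7th and 46.8th in females, which is a middling rank among liver DHS. In all 4 lists together, 35.6% of all regions were shared in this way.

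**Figure D1:**
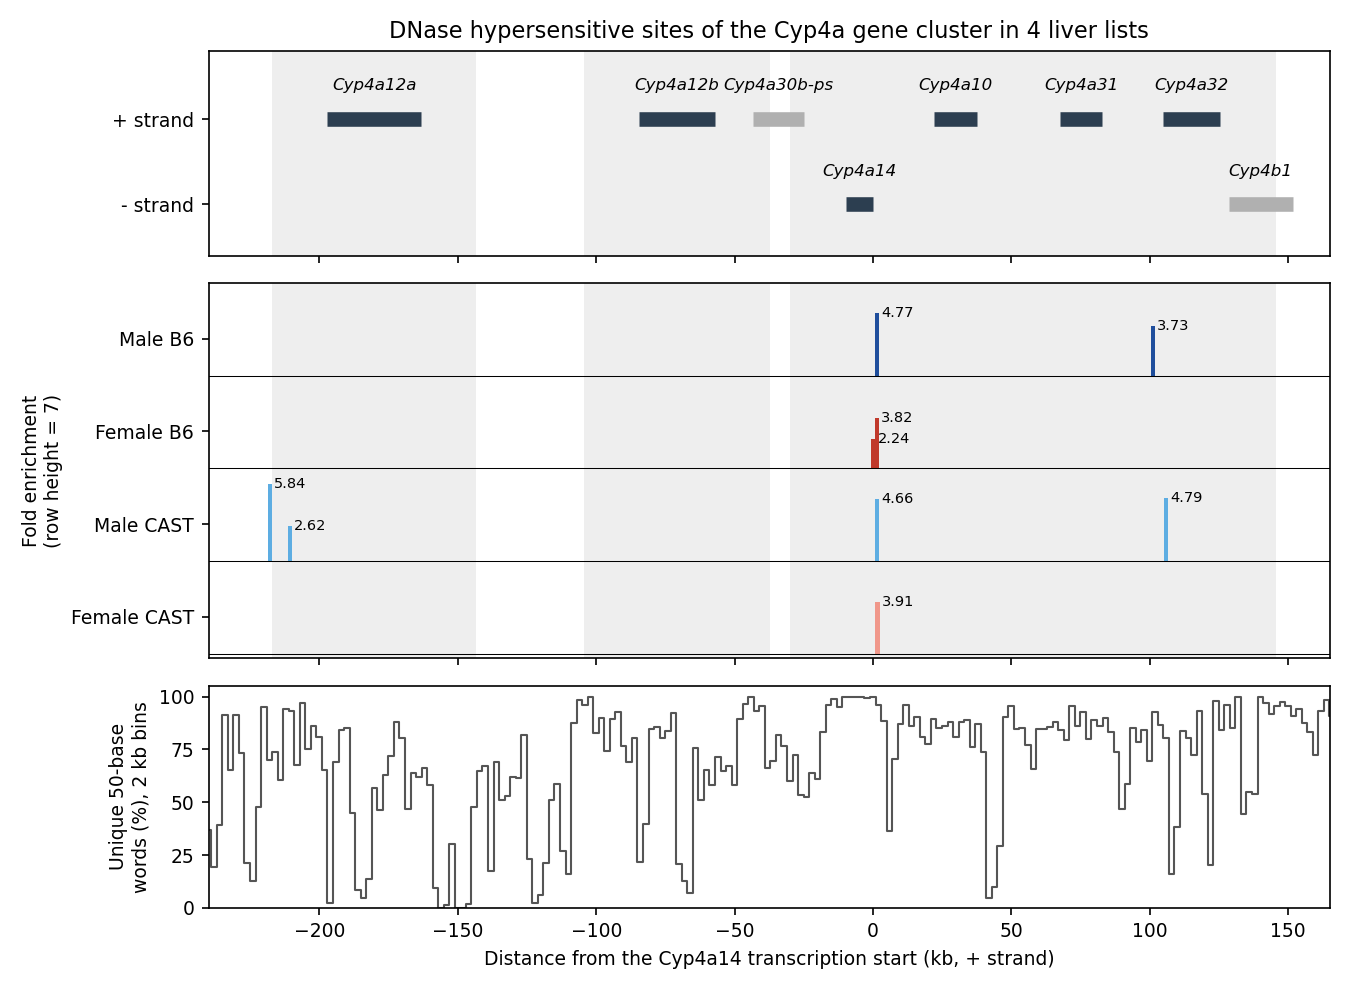
Genes, DHS and sequence uniqueness along the Cyp4a cluster by distance from the Cyp4a14 start (kb). The upper panel gives the 6 members (dark) and neighbouring Cyp4 genes (grey) with the 20 kb windows shaded, the middle panel gives fold enrichment of each peak in each list as bars on rows 7 units high, and the lower panel gives the percentage of 50-base words found once in mm9 in bins of 2 kb. Only the Cyp4a14 upstream site appears in all 4 rows, at 3.82 to 4.77, and the peak of 5.84 at the left edge lies outside the windows.

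The female over male (F/M) ratio of fold enrichment at the upstream DHS was 0.801 in B6 and 0.841 in CAST. Both ratios were below 1, but so was the typical ratio of the genome. The median log2 ratio of all regions found in both lists was -0.40 in B6 and -0.25 in CAST, and relative to that median the log2 ratio of the upstream DHS was 0.08 in B6 and 0.00 in CAST. It stood at the 61.6th percentile of 23644 shared regions in B6 and the 50.3rd of 22764 in CAST, in the middle of both distributions. The summit reads per background had a ratio of 0.802 in B6 and 0.872 in CAST. Their 95% exact binomial intervals, which cover counting error alone, were 0.558 to 1.15 and 0.561 to 1.33. Both intervals include equal height and the median ratio of all shared regions. A sex difference of modest size was not detectable at this depth. The study compared reads of the sexes for DNase and for a histone mark of enhancers. It lists Cyp4a14 among female-biased genes with female-biased enhancers nearby in both strains. That comparison was not repeated here.

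Between strains the ratio of fold enrichment was closer to 1, but it lay farther from the genome median than the F/M ratio did. CAST over B6 at the upstream DHS was 0.976 in males and 1.03 in females, with log2 ratios relative to the median of all shared regions of -0.11 and -0.21. The site stood at the 34.7th percentile of 29099 shared regions in males and the 23.7th of 18601 in females. The intervals of the summit reads per background were 0.698 to 1.37 around 0.979 in males and 0.674 to 1.66 around 1.06 in females. None of the 4 comparisons placed the site more than 2-fold from the median. Regions past that fold made up 0.220% of shared regions for F/M in B6, 0.369% for F/M in CAST, 2.31% for CAST over B6 in males and 1.10% for CAST over B6 in females, so a count of 0 of 1 is what most single regions would give. Each list enters 2 of the 4 comparisons, which are therefore not independent.

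**Figure D2:**
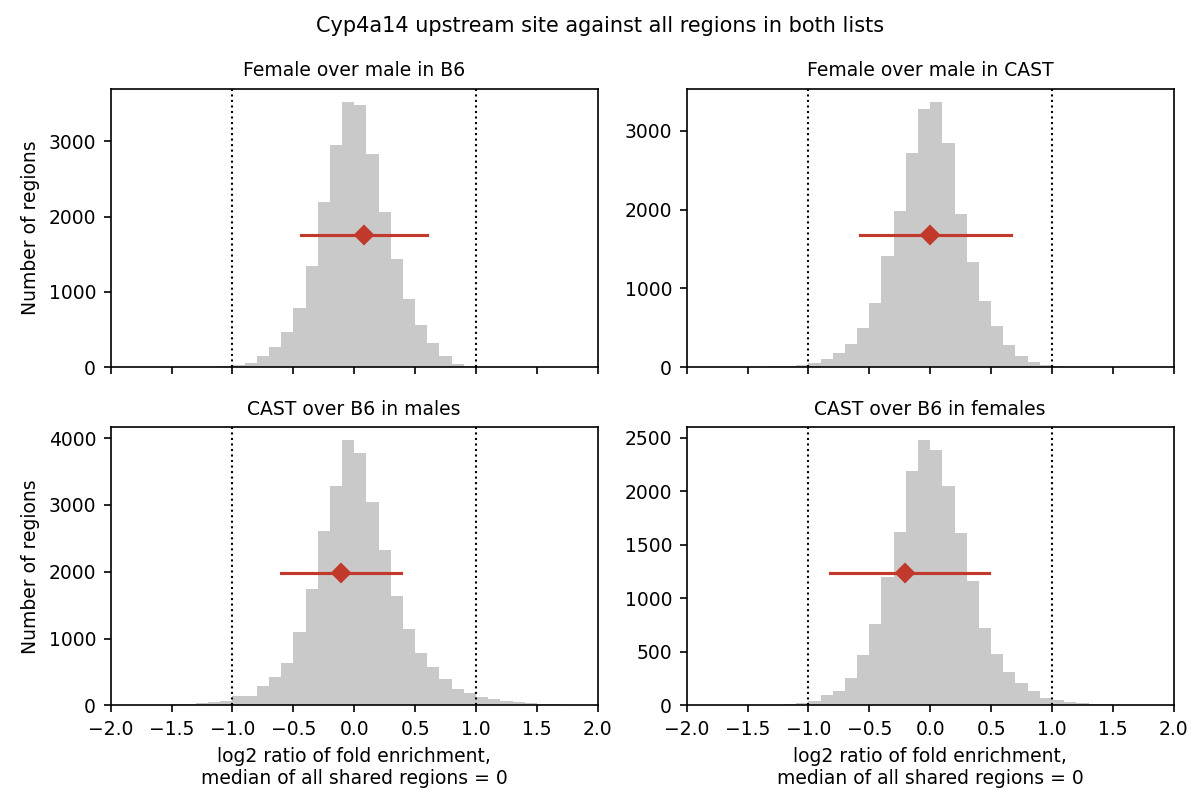
Log2 ratio of fold enrichment for all regions found in both lists of each comparison (grey histograms, number of regions against log2 ratio with the median set to 0). The red diamond is the Cyp4a14 upstream site, the red line is the 95% counting interval of its summit reads per background, and dotted lines mark 2-fold. The diamond sits between -0.21 and 0.08 in the 4 panels, inside the body of each histogram.

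The other 4 regions each appeared in a single list. The Cyp4a14 promoter DHS spanned chr4:115168586-115169181 and covered the start site, the 5′ untranslated and coding parts of the first exon and the sequence before it. It was called in Female B6 only, with a fold enrichment of 2.24 from 33 summit reads on a background of 14.2 reads. This was the weakest peak of the cluster, at the 8.88th percentile of its list, with a −log10 q of 2.84. A summit on the genome-wide background of Female B6 needed at least 28 reads, or a fold enrichment of 1.94, to be called, so the peak stood 5 reads above the lowest height callable on that background. For the other lists the files hold no value at this position, only that no peak passed the threshold. Female B6 was also the only list with more than 1 DHS at Cyp4a14, with 2 peaks against 1 in each of the others.

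The Cyp4a12a distal DHS, at chr4:114957884-114958287, lay in an intergenic stretch 13364 bp upstream of the Cyp4a12a start site. It was called in Male CAST only, with a fold enrichment of 2.62 from 39 summit reads, at the 22.2nd percentile of that list. A stronger Male CAST peak, with a fold enrichment of 5.84 and also in no other list, lay just past the window edge at chr4:114950804-114951100, 551 bp outside it. That peak is no member by the rule and is named here, after its value was seen, only because it is the nearest region outside the windows apart from the Cyp4a14 upstream DHS beyond the Cyp4a10 edge. The start of Cyp4a12a itself carried no peak in any list.

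The Cyp4a32 upstream DHS, at chr4:115269675-115270007, lay 3567 bp before the Cyp4a32 start site and within 20 kb of the end of Cyp4a31. It was called in Male B6 only, with a fold enrichment of 3.73 from 60 summit reads on a background of 15.4. Its rank in the list was the 54.4th percentile. The Cyp4a32 intronic DHS, at chr4:115274393-115274837, began 813 bp inside the gene from the nearer of its 2 annotated start sites and touched no exon. It was called in Male CAST only, and its fold enrichment of 4.79 from 72 summit reads was the highest value in the cluster, just above the 4.77 of the Cyp4a14 upstream DHS in Male B6. The 2 male lists thus each had 1 site at Cyp4a32, at different places, and both female lists had none there.

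Both Cyp4a32 sites were strong for regions of a single list. The Cyp4a32 upstream DHS ranked at the 95.9th percentile of the 7336 regions found in Male B6 alone, which had a median fold enrichment of 2.38. The intronic DHS ranked at the 97.9th percentile of the 7844 regions found in Male CAST alone, with a median of 2.49. The Cyp4a12a distal DHS stood at the 59.7th percentile of the same Male CAST regions. The Cyp4a14 promoter DHS stood at the 46.2nd percentile of the 1612 regions found in Female B6 alone. In the lists without them, a summit on the genome-wide background would have been called from 30 reads in Male B6, 28 reads in Male CAST and, at its lower depth, 19 reads in Female CAST.

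**Figure D3:**
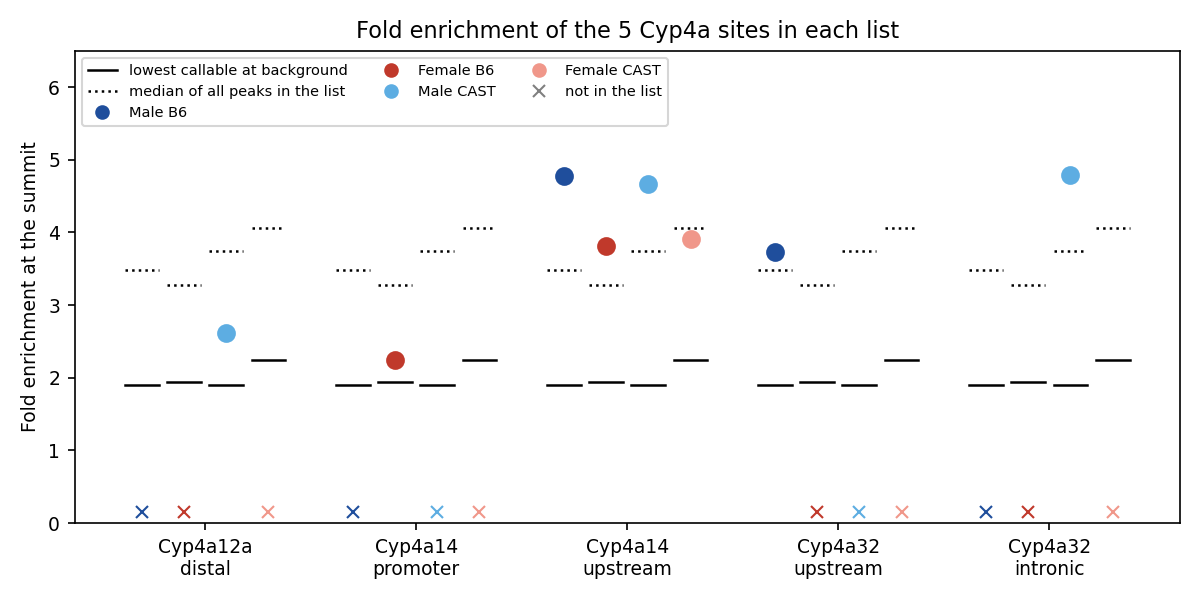
Fold enrichment at the summit of each of the 5 Cyp4a sites (y axis, linear from 0) in each list (coloured points). Crosses near 0 mark lists without a peak and are not measurements, solid ticks give the lowest fold enrichment callable on the genome-wide background (1.90 to 2.24) and dotted ticks the median of all peaks in the list (3.28 to 4.06). The Cyp4a14 upstream site has 4 points and the other sites have 1 each.

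Set against the genome, the number of single-list sites was 4 of 5, while 35.2% of all regions were found in a single list. With so few regions this share says little about the cluster. Between the sexes in B6, 1 of 3 regions was found in the male list only and 1 of 3 in the female list only, beside 36.4% and 5.13% of all regions. In CAST, 2 of 3 were found in the male list only and 0 of 3 in the female list only, beside 40.3% and 3.90%. Between strains in males, 2 of 4 were found in CAST only and 1 of 4 in B6 only, beside 20.9% and 19.1%. In females, 0 of 2 were found in CAST only and 1 of 2 in B6 only, beside 18.3% and 22.6%. In both strains of 1 sex only, 0 of 5 were found, beside 9.44% of all regions, and in both sexes of 1 strain only, 0 of 5, beside 6.93%, shares at which 5 regions would often hold none.

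No region of any list lay in the 210 kb between the Cyp4a12a distal DHS and the Cyp4a14 promoter DHS, which hold the whole of Cyp4a12a and Cyp4a12b, or in the 99.1 kb between the Cyp4a14 upstream and Cyp4a32 upstream DHS, which hold Cyp4a10 and Cyp4a31. The median distance between neighbouring regions was 11.8 kb. Gaps of at least 210 kb made up 4.47% of all gaps, and gaps of at least 99.1 kb made up 9.69%, but gaps this long held 51.8% and 66.8% of all bases between regions. Over the 317 kb of the joined windows the density was 15.8 regions per Mb, close to the 19.4 of the genome. Lack of a DHS within 20 kb was not rare, since 25.1% of 22367 protein-coding genes had none in any list.

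Only reads that map to 1 place were kept when the lists were made, and the members are close copies of each other. The coding sequences of Cyp4a12a and Cyp4a12b were 98.5% identical, and those of Cyp4a10, Cyp4a31 and Cyp4a32 were 96.0% to 97.2% identical to each other. Cyp4a14 was the most distant member, at 75.8% to 76.9% identity to the others. The reference sequence was cut into words of 50 bases, and a word was called unique if it occurs once in mm9 on either strand. Per the study's methods the libraries were read as pairs of 50 bases, and a pair can map to 1 place where a single word cannot, so the share of unique words understates what could be mapped. In the genome at large, sampled once each 10 kb, 88.5% of words were unique. Within 1 kb of the start site the share was 100% at Cyp4a14, 92.4% at Cyp4a31, 89.3% at Cyp4a10 and 83.5% at Cyp4a32, but 40.2% at Cyp4a12a and 39.6% at Cyp4a12b. Over the gene bodies it was 99.7% at Cyp4a14, 86.7% at Cyp4a31, 84.3% at Cyp4a10, 64.1% at Cyp4a32, 55.4% at Cyp4a12b and 52.4% at Cyp4a12a.

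Cyp4a14, the member with the most unique sequence, was thus also the member with the shared DHS. Among all protein-coding genes, a region within 2.5 kb of a start site was found for 62.5% of 19940 genes whose promoter held at least 90% unique words, 20.6% of 1147 genes with 50% to 90%, and 5.39% of 1280 genes with less than 50%. The promoters of Cyp4a14 and Cyp4a31 held 100% unique words, and Cyp4a14 alone of the pair had such a region. Those of Cyp4a10, Cyp4a12a, Cyp4a12b and Cyp4a32 held 72.1%, 66.1%, 63.3% and 59.8%, and Cyp4a32 alone of these had one. The part of sequence uniqueness in the missing sites was not tested.

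Of the 5 regions, 4 consisted of unique words throughout, as did the median region of the genome. The Cyp4a32 intronic DHS had 57.3% unique words, while 98.8% of all regions had at least 90%. Its sequence has close copies at the matching place of the neighbouring genes, inside Cyp4a31 with 92.6% identity over 458 aligned positions and inside Cyp4a10 with 87.4% over 468. Neither copy overlapped a DHS of any list. To show how close the copies are, they are printed for the stretch shown above, on the + strand, with bases that differ from the Cyp4a32 sequence or are extra to it in capitals.
Copy in Cyp4a31, chr4:115237242-115237394: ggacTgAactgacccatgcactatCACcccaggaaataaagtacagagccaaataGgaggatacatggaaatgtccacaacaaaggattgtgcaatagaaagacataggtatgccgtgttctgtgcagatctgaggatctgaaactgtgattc
Copy in Cyp4a10, chr4:115191852-115192015: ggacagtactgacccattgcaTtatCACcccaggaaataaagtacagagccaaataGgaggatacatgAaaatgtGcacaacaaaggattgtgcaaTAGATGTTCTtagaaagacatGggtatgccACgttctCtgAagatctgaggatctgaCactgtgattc

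Over this stretch the copy in Cyp4a31 differed at 3 of 150 aligned bases and the copy in Cyp4a10 at 10, besides insertions and deletions. The middles of the copies lay 1064 bp and 1065 bp after the start sites of Cyp4a31 and Cyp4a10, and the summit in Cyp4a32 lay 994 bp after its start. Unique words made up 52.9% of the stretch in Cyp4a32, 53.8% of its copy in Cyp4a31 and 100% of that in Cyp4a10. The reads behind the Cyp4a32 peak came from CAST livers and were mapped to a CAST version of mm9, so whether they belong to Cyp4a32 or to a copy in the CAST genome cannot be told apart from the deposited list.

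The Cyp4a32 upstream DHS also had relatives in the cluster, but more distant ones. Alignments of 214 positions were found 7468 bp before the Cyp4a31 start site with 90.2% identity and 3711 bp before the Cyp4a10 start site with 89.7%, again with no DHS there in any list. Over the stretch printed above the identity was 70.5% and 67.5%, and all words in the 3 stretches were unique. For both Cyp4a14 regions, no second match was found in the genome at an E-value of 1e-10. The Cyp4a12a distal DHS had 88 other matches, of which 1 lay in the cluster.

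In base composition the regions leaned towards A and T. The printed stretches had 35.1% G and C in the Cyp4a14 promoter DHS, 37.7% in both upstream DHS and 42.4% in the Cyp4a32 intronic DHS, all below the median of 49.0% over all regions. The Cyp4a12a distal DHS, with 55.6%, was above it. The CG dinucleotide, which marks CpG island promoters, occurred 3 times in the stretch of the Cyp4a12a distal DHS, 2 times in that of the Cyp4a14 upstream DHS, once in that of the Cyp4a32 intronic DHS and 0 times in the other two. The median over all regions was 2, and 17.1% of all regions had 0. Regions found in all 4 lists had a median of 54.3% G and C and 4 CG pairs, and the Cyp4a14 upstream DHS was below both.

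The cluster was then set beside the other genes of its family and pathway. Of 14 further Cyp4 family genes, 6 had a region within 2.5 kb of a start site and 5 had one in all 4 lists. Over 22367 protein-coding genes, the shares were 57.1% and 44.4%. The pseudogenes Cyp4a29-ps and Cyp4a30b-ps and the flanking genes Cyp4b1 and Cyp4x1 had none within this distance. Cyp4f14, a leukotriene and vitamin side chain hydroxylase abundant in liver, had a fold enrichment of 6.54, 4.19, 6.97 and 5.16 in Male B6, Female B6, Male CAST and Female CAST. Cyp4v3, a fatty acid hydroxylase found in many tissues, had 4.81, 4.08, 6.17 and 4.89 in the same order. At Cyp4f13 the values were 9.91, 6.77, 7.37 and 5.27, higher than any value in the Cyp4a cluster.

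Of 21 genes of the PPAR alpha list, PPAR alpha itself and its known targets in fatty acid oxidation and lipid handling, 20 had a region within 2.5 kb of a start site and 19 had one in all 4 lists, beside 57.1% and 44.4% of all protein-coding genes. The list holds genes known to be active in liver. Ppara, the receptor gene, had a fold enrichment of 7.91, 7.29, 8.46 and 7.65 in Male B6, Female B6, Male CAST and Female CAST. Acadm, a dehydrogenase of mitochondrial beta oxidation, had 10.6, 8.39, 10.8 and 9.63. Fabp1, the liver fatty acid binding protein, had 4.96, 3.94, 5.11 and 4.01, close to the 4.77, 3.82, 4.66 and 3.91 of the Cyp4a14 upstream DHS in the same order.

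The exceptions were Fgf21, a hepatic fasting hormone, with no region, and Vnn1, a pantetheinase, with 4.06 in Male B6 and 2.71 in Female B6 but no peak in either CAST list. Por, the reductase that passes electrons to every microsomal P450 including CYP4A, had 10.3 to 12.9 over the 4 lists. Of the genes with a region in both lists of a comparison, 5 Cyp4 relatives, 18 to 20 genes of the PPAR alpha list and Por, 0 differed more than 2-fold from the genome median, where 0.220% to 2.31% of all shared regions did, so a count of 0 is no result about these lists. By the same measure, 2 of the 6 Cyp4a genes had a region near a start site and 1 had one in all 4 lists, again beside 57.1% and 44.4%.

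**Figure D4:**
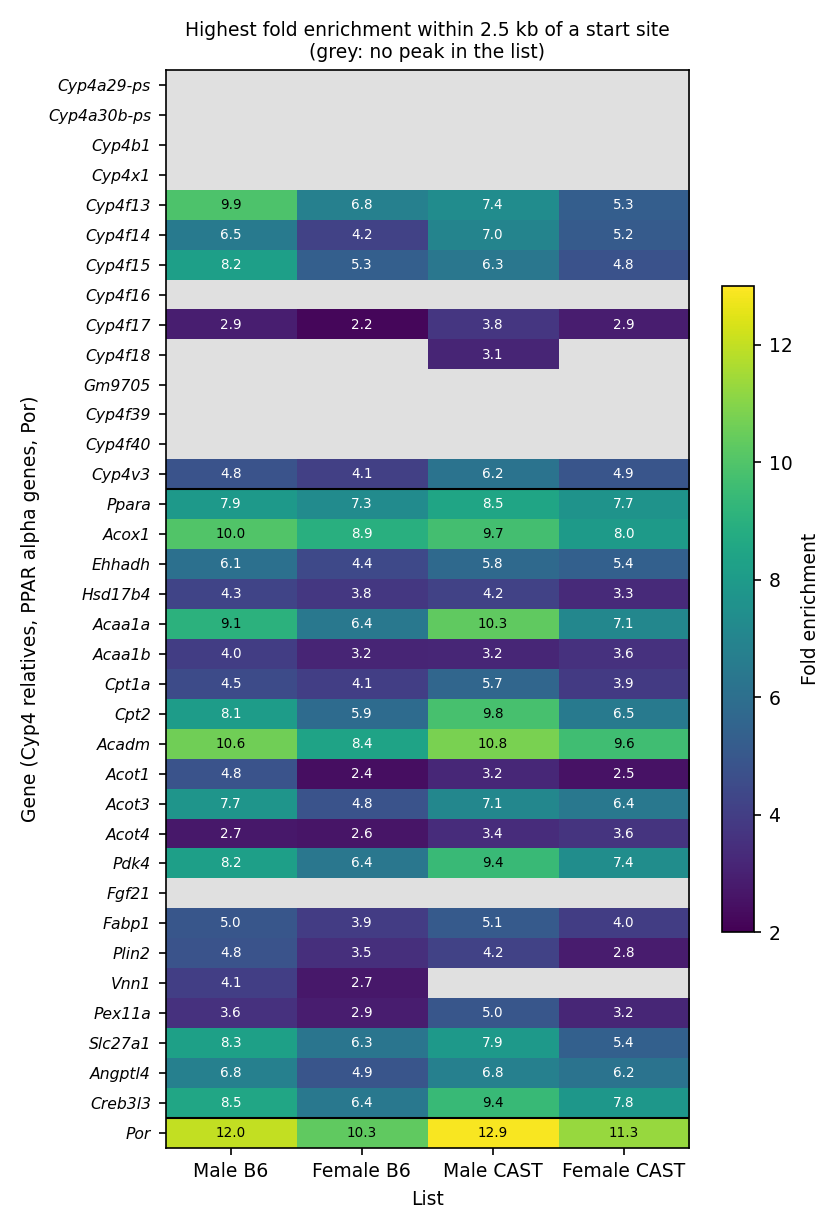
Highest fold enrichment within 2.5 kb of a start site (colour and printed value) for 14 other Cyp4 genes, 21 genes of the PPAR alpha list and Por (rows) in the 4 lists (columns), with grey for lists without a peak. PPAR alpha genes are filled in nearly every row, Cyp4 relatives in 6 rows, and Por has the highest values, 10.3 to 12.9.

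The gene whose profile over the 4 lists was most like that of Cyp4a14 was Tmem233, at a Euclidean distance of 0.0467 over the 4 lists. The distance was taken between profiles of log2(summed fold enrichment over a gene's window + 1), centred on the gene's own mean, among 14880 genes with at least 50% of the summed value of Cyp4a14. The summed values of Tmem233 were 6.74, 8.52, 6.89 and 5.59 in Male B6, Female B6, Male CAST and Female CAST, against 4.77, 6.05, 4.66 and 3.91 for Cyp4a14, where the 2 peaks of Female B6 add up. Cdca8 at 0.108 and Unc93b1 at 0.125 came next. For Cyp4a32 the nearest were Olfr275 at 0.0278, Cldn11 at 0.0293 and Bhmt-ps1 at 0.0494, which like it had peaks in the 2 male lists only. The profiles of Cyp4a12a and Cyp4a31 rested on 1 peak, so that other genes with a single peak in the same list matched them at or near a distance of 0.

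Marker genes of liver cell types were counted by a region within 2.5 kb of a start site in any list. Of 10 hepatocyte genes, 9 had one. Of 6 Kupffer cell genes, 1 had one, in Male CAST only, and the counts were 5 of 5 for sinusoidal endothelial cells, 2 of 5 for stellate cells, 2 of 5 for bile duct cells and 0 of 3 for lymphocytes, beside 57.1% of all genes. In all 4 lists the counts were 9 for hepatocytes, 1 each for sinusoidal endothelial and bile duct cells and 0 for Kupffer cells, stellate cells and lymphocytes, beside 44.4% of all genes. The counts of sinusoidal endothelial genes were 5 (B6) and 2 (CAST) in males and 4 (B6) and 1 (CAST) in females, beside 54.1%, 53.4%, 49.2% and 46.5% of all genes in the same order, and were not tested. Among them Stab2 had a fold enrichment of 6.39 (B6) and 8.13 (CAST) in males and 4.68 and 5.45 in females. Clec4g had 3.14 and 2.29 in males, and 2.21 in Female B6 with no peak in Female CAST. Lyve1, Kdr and Fcgr2b, without a peak in either CAST list, had 2.17, 2.55 and 3.21 in Male B6. The lists held 24888 to 39562 peaks, and the 2 female lists were the shorter ones in both strains. In bulk nuclei, fewer cells with an open site and less open chromatin per cell cannot be told apart, and the part of cell composition and list length in the single-list Cyp4a sites was not tested.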

How the data were processed

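DNase I cleavage was measured in mouse liver nuclei by sequencing, and 16 libraries were assigned to 4 groups from their titles. Per the methods of the study, reads were mapped with Bowtie2 (version 2.2.9), B6 reads to mm9 and CAST reads to mm9 carrying CAST variants with coordinates converted back, keeping uniquely mapped reads. Libraries of a group were merged before peaks were called with MACS2 (version 2.1.1), and blacklisted regions and peaks of duplicated reads were removed. Fold enrichment as deposited is a ratio, summit pileup over background, with a pseudocount of 1 in each. The deposited −log10 p-value and −log10 q-value rank a peak within its list, at a q-value threshold of 0.05. The authors' summit is a distance in bases from the peak start, recorded as a score.

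Peaks were joined with Python (version 3.11.15). Genes were from GENCODE vM1 on NCBIM37, the assembly of mm9, inside whose chromosome lengths all peaks fell. Summit reads and background were recovered from fold enrichment and −log10 p, and came out whole within 0.02 for at least 99.9% of peaks in each list. The total reads per library were not used here, and the background reads of a list stand for its depth. Whether a pileup counts single reads or pairs was not checked. Exact binomial intervals of 95% cover counting error only. Similar sequences were sought with blastn (version 2.17.0), and coding sequences were aligned with Biopython (version 1.88). The joining and the recovery of reads were tested on simulated data. Printed sequences were read from NCBIM37.

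The members and gene lists were chosen with earlier results of these data known. A further gene of the PPAR alpha list is not reported here. Every member was named. Regions described in full lay within 2.5 kb of a member start site or had the highest fold enrichment of a member window. This took in all 5. Regions of a single sex in both strains, or of a single strain in both sexes, were also to be described, and there were 0. No p-value between groups was computed, because each group is 1 list. Alternatives changed the window, the joining, the peaks kept, the measure and the fold.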

Additional observations from a re-analysis of the deposited data

How the results depend on the processing

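With only peaks at or above the pooled median −log10 q of 15.7, 2 regions were left, 1 of them in a single list and 0 in all 4. That setting left 1 region in the Male B6 list and 2 in Male CAST, but 0 in both female lists, since the Cyp4a14 upstream DHS passed in both male lists only, at −log10 q values of 26.4 and 23.5 against 14.5 and 9.12 in the females. Windows of 50 kb raised the count in the Male CAST list to 5, against 3 with 20 kb, by adding 2 regions farther upstream of Cyp4a12a than its distal DHS. All other counts of regions stayed within 1.5 times their value under windows of 10 kb or 50 kb, joining at 50% overlap of both peaks or within 500 bp, lists of equal size and regions with at least 90% unique words. This last setting removed the Cyp4a32 intronic DHS, and equal lists removed the Cyp4a12a distal DHS. The log2 ratios of the Cyp4a14 upstream DHS relative to the median ranged over the alternatives from 0.08 to 0.45 for F/M in B6, 0.00 to 0.28 for F/M in CAST, -0.12 to -0.11 for CAST over B6 in males and -0.34 to -0.21 in females, beside counting intervals, set to the same medians, of -0.44 to 0.60, -0.58 to 0.66, -0.60 to 0.38 and -0.82 to 0.48. The far ends came from the summit pileup less its background. The site passed neither 2-fold nor 1.5-fold in any comparison. No paired analysis was possible because each group is 1 pooled list, and no replicate could be left out for the same reason. Depth limits what a missing peak means, since the background was 7.94 reads in Female CAST and 13.9 to 15.4 in the others. The spread between animals is unknown here.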
